A study of Arabidopsis thaliana with 24 samples.

Results

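Polysome association was followed in dcp5-1 seedlings before and after 150 mM NaCl, as the change of a gene's polysomal RNA minus the change of its total RNA. The members were chosen by fraction, time and genotype, which gave 12 of the 24 libraries of the study, and by level, which gave the 20301 of 38088 listed genes that reached 1 FPKM (fragments scaled to transcript length and library depth) in at least 3 of those 12 libraries. FPKM gives a gene's share of its own library, so it follows relative and not absolute amounts, and in whole seedlings fewer cells of a type cannot be told apart from less RNA per cell.

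The plants were 5-day-old Arabidopsis thaliana seedlings, either Col-0, the common laboratory accession, or dcp5-1, a mutant allele of DCP5. All seedlings first rested 30 min in liquid medium, and then spent 0 min (T0) or 15 min (T15) in medium with 150 mM NaCl. Each lysate gave total RNA, and polysomal RNA pooled from the polysome fractions of a 10% to 50% sucrose gradient. There were 3 libraries in each of the 8 groups of genotype, time and RNA fraction. A group kept for 15 min without NaCl was not analysed here, so the effect of NaCl cannot be told apart from that of transfer, handling or elapsed time. The dcp5-1 samples carry the ecotype labels Col-1 to Col-12, and nothing says that replicates came from separate cultures, so p-values measure the spread between these libraries, which may be technical. The table does not define its suffix IP, which was read as polysomal RNA; if it marked the input, every association value would change sign.

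Polysomes are mRNAs that carry several ribosomes, and the share of an mRNA found in them is used as a measure of its translation. DCP5 is an Lsm14-type protein of processing bodies, the cytoplasmic granules where decapping enzymes and RNA helicases meet mRNAs that are not being translated. In Arabidopsis, DCP5 takes part in decapping and in translational repression, and hyperosmotic stress is known to lower overall translation and to send mRNA into granules.

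Coding sequences are shown for the shortest pair and the longest of the 24 genes with the largest changes in association, because the change ran with coding length across all genes. Capitals mark the start codon and, where the end is shown, the stop codon. AGP13 (chr4:13317235-13317414, minus strand, 59 amino acids) and AGP14 (chr5:22893243-22893425, plus strand, 60 amino acids) rose, and each encodes a small arabinogalactan peptide of the cell surface. CR88, a chloroplast heat shock protein of the HSP90 family with 780 amino acids, fell, and the first 180 of its 2343 coding bases are given (coding region chr2:1281983-1285909 with introns, plus strand). Sequences are from the TAIR10.1 assembly.

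AGP13: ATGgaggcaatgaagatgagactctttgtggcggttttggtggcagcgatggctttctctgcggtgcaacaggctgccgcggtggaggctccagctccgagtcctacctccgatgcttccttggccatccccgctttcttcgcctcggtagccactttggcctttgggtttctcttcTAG

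AGP14: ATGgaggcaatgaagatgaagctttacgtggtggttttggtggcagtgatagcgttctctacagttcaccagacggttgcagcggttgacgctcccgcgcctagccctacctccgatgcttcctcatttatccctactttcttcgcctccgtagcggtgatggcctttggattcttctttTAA

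CR88: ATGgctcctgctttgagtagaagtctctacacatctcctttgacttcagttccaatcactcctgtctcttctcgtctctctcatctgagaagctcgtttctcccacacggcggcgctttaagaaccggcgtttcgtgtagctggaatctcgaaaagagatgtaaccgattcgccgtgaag

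The dcp5-1 libraries were alike in depth and in number of genes reached, but not in the nuclear share of fragments. On the log2 scale, against the mean of all 24 libraries, that share was -0.17 to -0.12 in total RNA. It was -0.025 to -0.0063 in T0 polysomal and 0.070 to 0.075 in T15 polysomal RNA. The spacing of low values implied 15830000 to 19030000 fragments in each dcp5-1 library, and 19187 to 19579 genes reached 1 FPKM. Among genes of at least 50 FPKM, the median coefficient of variation within the 4 dcp5-1 groups was 3.10% to 3.57%, against 8.68% in Col-0 T0 total RNA. The highest share of identical values between 2 libraries was 0.00524%, a share that does not count genes listed at 0 in every library. Leaf markers were abundant, with LHCB6, an antenna protein, at 2083 to 4195 FPKM over the 12 libraries, while RBCS1A, a Rubisco small subunit gene, was listed at 0 throughout, so a listed 0 can be a failed estimate here. Among root hair markers EXPA7 lay at 1.73 to 3.95 FPKM, EXPA18 at 0.854 to 4.67, SHV2 at 0.420 to 1.34 and PRP3 at 5.61 to 14.42 FPKM. Of the seed storage genes, CRA1 reached at most 2.36 FPKM, and CRU3 was listed at 0 in all 12 libraries, which gives no level.

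DCP5 itself followed its label. Its total RNA in dcp5-1 was 12.99, 12.96 and 13.16 FPKM at T0 against a Col-0 mean of 50.7 ± 1.99 (SD, n = 3), and 16.70, 16.80 and 17.02 FPKM at T15 against 77.0 ± 0.198. Its polysomal RNA in dcp5-1 read 20.40, 21.35 and 20.15 FPKM at T0 and 21.52, 19.67 and 20.62 FPKM at T15. Total RNA thus rose with no overlap between the times, while polysomal values overlapped, and association fell by 0.35 on the log2 scale (SE 0.0596, adjusted p = 0.00012 in limma). It fell by 0.68 in Col-0, and the difference between genotypes was 0.33 (adjusted p = 0.023).

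After 15 min of NaCl, 2600 genes rose in polysome association in dcp5-1 (12.8% of those tested) and 2948 fell (14.5%), with a Benjamini-Hochberg adjusted p below 0.05 in limma over all 20301 genes. Most changes were small: 172 genes (0.847%) rose and 41 (0.202%) fell by 2-fold or more. Both sets came mainly from total RNA. Of the risers, 2266 (87.2%) fell in total RNA, and in 1521 of those polysomal RNA did not pass the test. Their median change was -0.57 in total and -0.07 in polysomal RNA. Of the fallers, 2593 (88.0%) rose in total RNA, with medians of 0.47 in total and 0.06 in polysomal RNA. A rise carried by polysomal RNA, with no called change in total RNA, was seen in 228 genes (8.77% of the risers), and the matching fall in 254 (8.62% of the fallers). Over all genes tested, total RNA rose in 6067 (29.9%) and fell in 5597 (27.6%), and polysomal RNA rose in 3596 (17.7%) and fell in 3266 (16.1%). Total RNA rose 2-fold or more in 235 genes (1.16%) and fell as much in 534 (2.63%).

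Scaling sets where 0 lies, and mRNA length and base composition can enter as well. A length and GC adjustment, which took each library's trend on these transcript properties out of the values, gave 2339 rising and 2488 falling genes. With organelle-encoded genes removed and the libraries set to equal nuclear fragments, the median association change moved from -0.0042 to -0.09, and 1905 genes rose while 4111 fell, so risers made up 31.7% of the calls in place of 46.9%. In polysomal RNA alone the same step gave 2093 rising and 4982 falling genes.

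**Figure D1:**
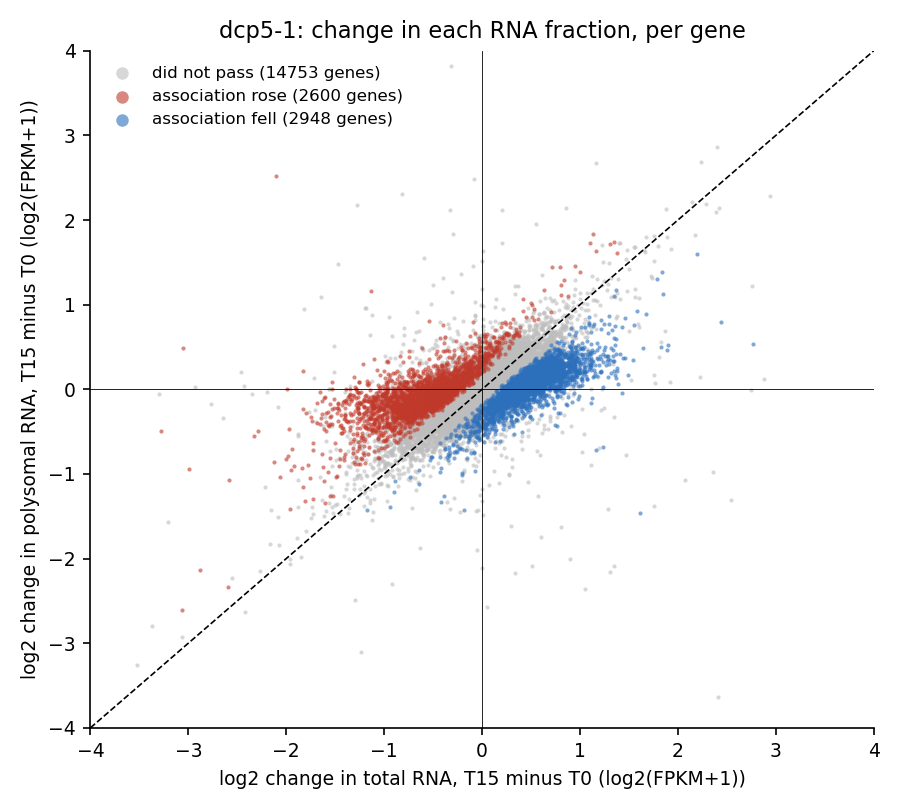
Change in total RNA (x axis) and polysomal RNA (y axis) from T0 to T15 in dcp5-1, in log2(FPKM + 1) units, with 1 point per gene (12 genes lie beyond the limits of 4). The 2600 genes that rose in association (red) lie mainly at negative total RNA changes near 0 on the polysomal axis, and the 2948 that fell (blue) at positive total RNA changes; the dashed line marks equal change in both fractions.

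The largest rises were in short mRNAs whose total RNA fell by more than their polysomal RNA. Among named nuclear genes with a mean of at least 10 FPKM, the 12 largest rises ran from 1.25 to 2.79 on the log2 scale, and the coding sequences were 180 to 633 nt long (median 354). Total RNA fell in 12 of 12, polysomal RNA fell in 3 and did not pass in the others, and the same 12 rose in Col-0.

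TPX2 (AT1G65970, chromosome 1, 24557372 to 24558322), a type II peroxiredoxin that removes peroxides, rose most. Its total RNA was 316.1, 316.3 and 361.4 FPKM at T0 and 33.64, 27.70 and 38.67 FPKM at T15. Its polysomal RNA went from 285.3, 277.3 and 276.8 FPKM to 200.1, 197.6 and 197.7 FPKM. The times did not overlap in either fraction, and total RNA fell by far more, so association rose 6.92-fold (log2 2.79 ± 0.15 SE, adjusted p = 4.8e-11). TPX2 overlaps a neighbouring gene and has a close copy, and the strand setting of the counting is not given in the sources used here, so its reads may be shared.

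AGP13 (AT4G26320), whose whole coding sequence is printed above, fell in total RNA from 113.7, 117.0 and 127.4 FPKM to 32.72, 31.91 and 34.29 FPKM. Its polysomal RNA was 48.64, 44.28 and 43.81 FPKM at T0 and 57.20, 53.70 and 48.19 FPKM at T15. The total RNA groups were far apart while the polysomal groups overlapped, and association rose by 2.04 ± 0.14 (SE, adjusted p = 1.3e-09). AGP14 (AT5G56540) went from 221.9, 228.1 and 232.3 to 88.18, 88.15 and 101.8 FPKM in total RNA and stayed between 105.5 and 122.9 FPKM in polysomal RNA at both times, a rise of 1.29 ± 0.15 in association (adjusted p = 1e-06). AGP16, another arabinogalactan peptide, rose by 1.29 ± 0.08 (adjusted p = 1.6e-10), although it too overlaps a neighbour.

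DI21 (AT4G15910, chromosome 4, 9028262 to 9029477), named for its induction by drought, fell in total RNA from 55.35, 54.18 and 52.52 FPKM to 13.61, 12.49 and 12.52 FPKM. In polysomal RNA it read 120.5, 121.1 and 105.9 FPKM at T0 and 113.0, 116.2 and 118.7 FPKM at T15. The total RNA groups were far apart and the polysomal groups overlapped, and association rose by 1.99 ± 0.11 (adjusted p = 4.4e-11). RPS15A (AT1G07770), a protein of the small ribosomal subunit, went from 957.5, 936.2 and 944.0 FPKM to 297.1, 273.5 and 312.2 FPKM in total RNA, and from 635.3, 637.5 and 630.8 FPKM to 568.9, 560.0 and 575.9 FPKM in polysomal RNA. Both fractions were lower at T15 without overlap, although the polysomal change did not pass the test (-0.16, adjusted p = 0.11), and association rose by 1.52 ± 0.11 (adjusted p = 8.6e-10). The other 6 rose by 1.25 to 1.51. They were PDF1.5 (a plant defensin), CYCP2;1 (a P-type cyclin), LSM3B (an Sm-like subunit of the rings that serve splicing and decapping), UBC8 (a ubiquitin-conjugating enzyme), AVA-P4 (a proteolipid of the vacuolar proton pump) and TTN5 (a small GTPase of the ARF family). PDF1.5 was the noisiest of them, with an SE of 0.33 and polysomal values between 4.74 and 8.98 FPKM.

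The largest falls were in longer mRNAs that rose in total RNA. The 12 ran from -2.23 to -1.09, with coding sequences of 1176 to 2343 nt (median 1518). Total RNA rose in 12 of 12, polysomal RNA rose in 7, fell in 1 and did not pass in 4, and the same 12 fell in Col-0.

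TGG2 (AT5G25980, chromosome 5, 9072708 to 9075777), a myrosinase that cleaves glucosinolates, fell most. Its total RNA went from 18.01, 15.05 and 17.43 FPKM to 122.3, 123.9 and 114.7 FPKM. Its polysomal RNA went from 97.53, 93.70 and 95.05 FPKM to 143.4, 137.0 and 136.4 FPKM. Both fractions rose without overlap between the times, total RNA the more, and association fell 4.70-fold (log2 -2.23 ± 0.08 SE, adjusted p = 1.5e-14).

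ABA1 (AT5G67030, chromosome 5, 26753469 to 26757402), the zeaxanthin epoxidase that starts the path to abscisic acid (ABA), had 60.04, 58.94 and 58.42 FPKM in total RNA at T0 and 227.1, 220.4 and 217.3 FPKM at T15. Its polysomal RNA rose from 133.7, 132.5 and 127.2 FPKM to 183.0, 181.4 and 181.1 FPKM, again with no overlap. The association change was -1.42 ± 0.06 (adjusted p = 2.6e-13). RCA (AT2G39730), which reactivates Rubisco, rose in total RNA from between 1147 and 1275 to between 4412 and 4550 FPKM, and its association change was -1.37 ± 0.09 (adjusted p = 1.7e-10). CR88 (AT2G04030) rose in total RNA from 49.25, 47.90 and 47.07 to 117.5, 118.3 and 121.2 FPKM, and in polysomal RNA from 128.5, 135.8 and 140.0 to 150.6, 148.6 and 148.8 FPKM. Both of its comparisons were free of overlap, and association changed by -1.14 ± 0.06 (adjusted p = 1.3e-11).

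The other 8 changed by -1.33 to -1.09. They were MFP1 (a thylakoid-bound coiled-coil protein), PTAC17 (found with the plastid transcription complex), UGT74E2 (a glycosyltransferase acting on auxin precursors), TIC40 (part of the chloroplast import machinery), ACD1-LIKE (a relative of the chlorophyll breakdown enzyme ACD1), CPN60B (a chloroplast chaperonin subunit), VAR2 (a thylakoid protease) and GLL22 (a GDSL lipase-like protein of the PYK10 complex). UGT74E2 was the 1 whose polysomal RNA fell, by 0.17 (adjusted p = 0.028). MFP1, PTAC17, CPN60B, VAR2 and RCA overlap a neighbouring gene, as do LSM3B and TTN5 among the risers. Genes named below with such an overlap include BAM2, EIF3E, AT5G19510, DELTA-TIP, LHCA4, PRK, P5CS1, RAB18, WRKY33, ENT1, FXG1 and GLT1.

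**Figure D2:**
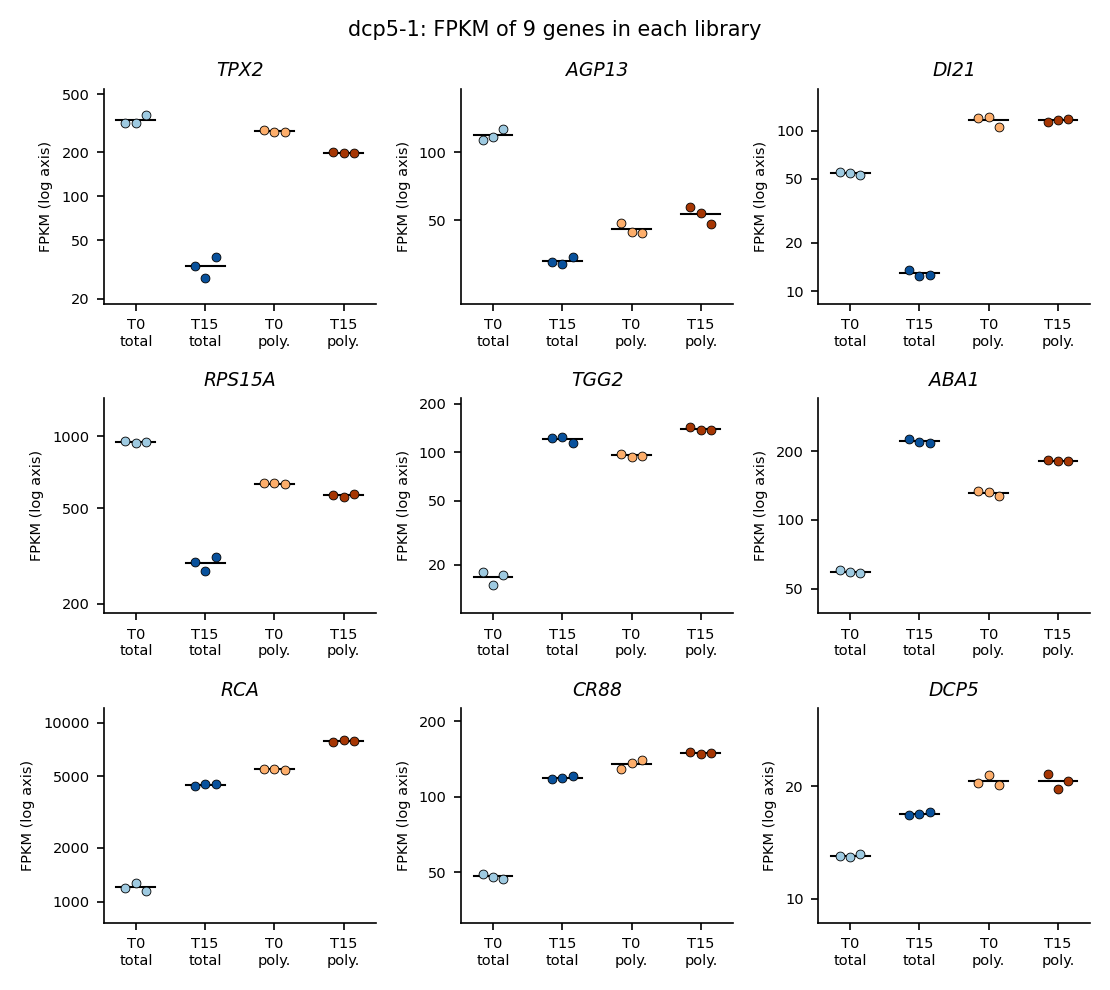
FPKM (log axis) of 9 genes in each of the 12 dcp5-1 libraries, with 1 point per library and a bar at the mean of 3. In TPX2, AGP13, DI21 and RPS15A the T15 total RNA points lie far below those of T0, in TGG2, ABA1, RCA and CR88 far above, and the polysomal points of the 2 times lie closer together than the total RNA points in each of these 8; DCP5, the mutated gene, is shown for reference.

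In a smaller set the called change lay in polysomal RNA. CYP79B2 (AT4G39950), which makes the indole precursor of glucosinolates and camalexin, held 32.44, 32.51 and 35.19 FPKM in total RNA at T0 and 35.24, 33.51 and 32.94 FPKM at T15. Its polysomal RNA rose from 79.03, 78.10 and 80.08 FPKM to 124.4, 122.6 and 126.9 FPKM. The total RNA groups overlapped and the polysomal groups did not, and association rose by 0.63 ± 0.07 (adjusted p = 6.5e-07). The other 4 named risers of this kind were TLP-3 (a thaumatin-like protein, 0.67), BAM2 (a receptor kinase of meristem and anther development, 0.59), CYP94B1 (which oxidises jasmonoyl-isoleucine, 0.52) and OPR3 (which makes the jasmonate precursor OPC-8:0, 0.47). In TLP-3 total RNA also fell without overlap, from between 13.04 and 15.11 to between 10.74 and 12.80 FPKM. That change narrowly missed the threshold in limma (-0.20, adjusted p = 0.057).

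In the opposite direction, CAX1 (AT2G38170), the vacuolar calcium/proton exchanger, held 56.88, 56.26 and 58.04 FPKM in total RNA at T0 and 58.80, 54.61 and 59.79 FPKM at T15. Its polysomal RNA fell from 155.3, 159.9 and 159.2 FPKM to 97.65, 107.0 and 102.4 FPKM. The groups overlapped in total RNA and were apart in polysomal RNA, with an association change of -0.64 ± 0.06 (adjusted p = 6.4e-08). ROF1 (a heat-stress immunophilin, -0.62), CYP705A5 (of the thalianol pathway, -0.56) and SFP2 (a sugar transporter homologue, -0.54) followed the same pattern. CYP71B2 (-0.57) was apart in polysomal RNA too, but its total RNA did not overlap either. It lay between 8.50 and 9.73 FPKM at T0 and between 9.98 and 10.44 FPKM at T15. Of these 10 genes, OPR3 and CAX1 differed from Col-0, by 0.39 (adjusted p = 0.042) and -0.43 (adjusted p = 0.0054), and after the length and GC adjustment OPR3 did not pass (adjusted p = 0.091). TLP-3 did not differ at the threshold (0.53, adjusted p = 0.076), but did so after that adjustment (0.58, adjusted p = 0.029) and with organelle genes removed (0.64, adjusted p = 0.015).

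Cytosolic ribosomal protein mRNAs rose in association as a group, while translation factor mRNAs did not. Of 80 genes for the small (40S) subunit, 61 rose and none fell (median 0.50), and of 105 tested of 110 genes for the large (60S) subunit, 83 rose and 2 fell (median 0.52), against 12.8% rising and a median of -0.0042 over all genes. In total RNA 77 of the 80 and 99 of the 105 fell, against 27.6% of all genes. In polysomal RNA 36 of the 80 and 66 of the 105 fell, against 16.1% of all genes. After the length and GC adjustment, 48 and 65 members passed as rising, with medians of 0.26 and 0.27. The list's coding sequences are short, with medians of 447 and 495 nt.

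AT5G27700, a 40S gene, had 857.0, 910.6 and 964.1 FPKM in total RNA at T0 and 317.7, 329.1 and 342.3 FPKM at T15. Its polysomal values were 375.7, 356.0 and 345.3 FPKM and then 293.9, 301.4 and 309.3 FPKM. Total RNA fell by more than polysomal RNA, both without overlap, and association rose by 1.21 ± 0.11 (adjusted p = 1.7e-08). AT3G14600 and AT3G59540 of the 60S subunit rose by 0.99 and 1.28. AT3G09630 and RP1, the pair that fell, changed by -0.32 (adjusted p = 0.027) and -0.30 (adjusted p = 0.036), and lost the call when any of 4 and of 8 single libraries were left out. Ribosomal protein genes come in near-identical copies, so reads may be split between copies within the families.

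Of 34 translation factors and poly(A)-binding proteins, 3 rose (8.82%, against 12.8% of all genes) and 10 fell (29.4%, against 14.5%), with a median of -0.10. The fallers included ERF1-1, a peptide chain release factor (-0.67 ± 0.09, adjusted p = 3.9e-06), EIF4A1, an initiation helicase (-0.50), eIFiso4G1, a cap-complex scaffold (-0.57), and EIF3E (-0.43). The risers were the elongation factor 1B subunits eEF-1Bb1 (0.64 ± 0.10, adjusted p = 3.2e-05) and AT5G19510 (0.63), with the poly(A)-binding protein gene PAB4 (0.32).

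Arabinogalactan proteins, glycoproteins of the cell surface, rose in 16 of 19 (84.2%, against 12.8% of all genes), and none fell (median 0.74). Total RNA fell in 17 of the 19, against 27.6% of all genes. Among those with larger changes were AGP41 (1.32), AGP24 (1.23), AGP22 (1.22) and AGP12 (1.08), and the 3 that did not pass were AGP5, AGP40 and AGP21 at 0.19, 0.37 and 0.41. Of the 19, 10 rose after the length and GC adjustment. Cell wall loosening genes rose in 7 of 26 (26.9%, against 12.8% of all genes) with none falling (median 0.16). With organelle genes removed 6 of them rose and 1 fell. XTH5, a xyloglucan endotransglucosylase, rose by 1.22 ± 0.15 (adjusted p = 1.9e-06) as its total RNA went from between 4.43 and 4.93 to between 1.40 and 1.66 FPKM. EXP3, an expansin, rose by 0.44. Among aquaporins, DELTA-TIP (0.44) and PIP3 (0.32) rose (10.5% of the list, against 12.8% of all genes) and 17 of 19 did not pass. With organelle genes removed 2 aquaporins rose and 2 fell.

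**Figure D3:**
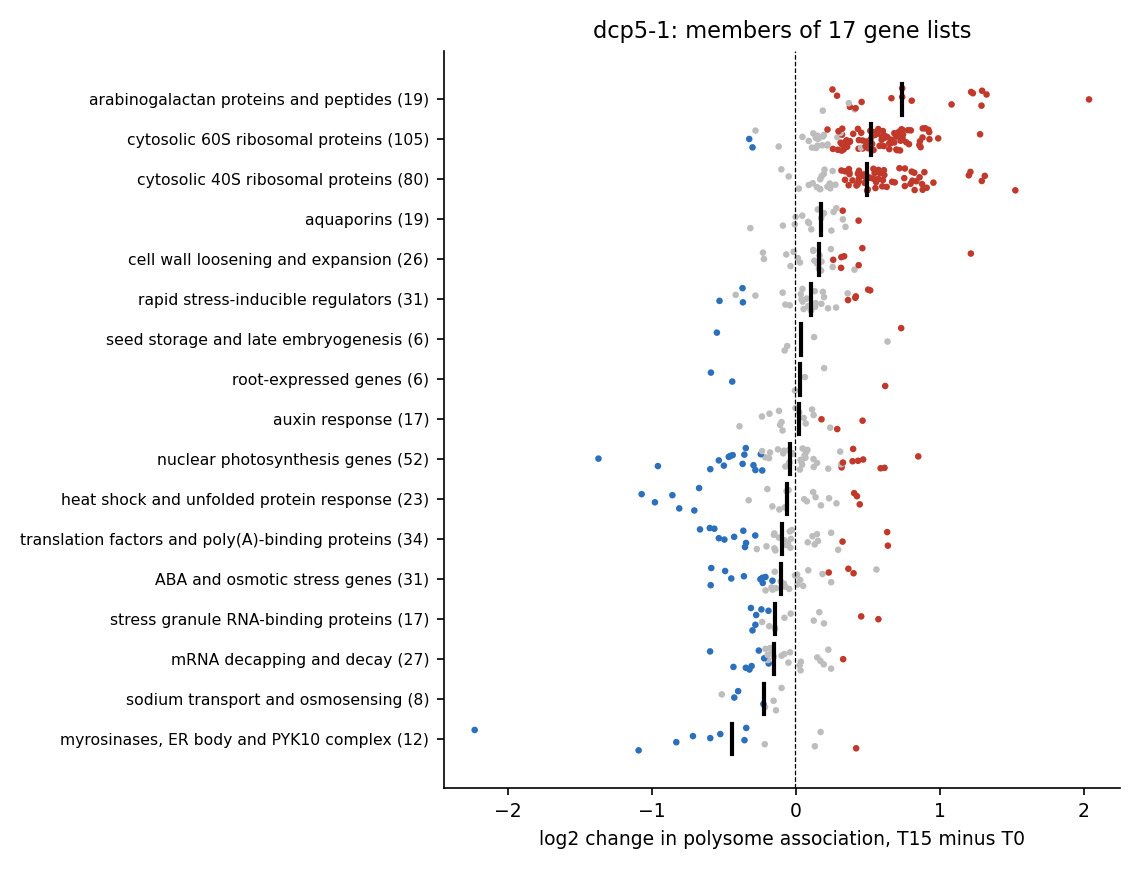
Log2 change in polysome association in dcp5-1 for the tested members of 17 gene lists (number tested in brackets), with 1 point per gene, red for genes that rose, blue for genes that fell and grey for genes that did not pass; thick bars mark list medians and the dashed line the median of all genes. Medians run from -0.44 (myrosinases, ER body and PYK10 complex) to 0.74 (arabinogalactan proteins).

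Myrosinase, ER body and PYK10 complex genes, which serve glucosinolate defence, fell in 8 of 12 tested (66.7%, against 14.5% of all genes). In this list 1 gene rose (8.33%, against 12.8%), and the median was -0.44. Beside TGG2 and GLL22 above, BGLU22 changed by -0.83 ± 0.06 (adjusted p = 3.5e-10), with total RNA up from between 28.49 and 28.83 to between 45.41 and 46.48 FPKM. The epithiospecifier modifier ESM1 changed by -0.72, the beta-glucosidase PYK10 by -0.60, the ER body protein NAI2 by -0.53 and TGG1 by -0.35. AT1G54010, a close relative of GLL22, was the riser (0.42 ± 0.07, adjusted p = 0.0002), and its polysomal RNA went from 135.3, 136.3 and 134.3 FPKM to 214.2, 211.5 and 220.5 FPKM. The count was 8 fallers and 1 riser after the length and GC adjustment as well.

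Nuclear photosynthesis genes split, with 9 of 52 rising (17.3%, against 12.8% of all genes) and 15 falling (28.85%, against 14.5%), at a median of -0.04. Total RNA rose in 30 of the 52, against 29.9% of all genes, and polysomal RNA in 32 of the 52, against 17.7%. PRK, the phosphoribulokinase of the Calvin cycle, changed by -0.96 ± 0.06 (adjusted p = 6.4e-11), as total RNA went from between 236.6 and 244.8 to between 578.2 and 607.2 FPKM. LHCA4, an antenna protein of photosystem I, rose by 0.85 ± 0.08 (adjusted p = 1.1e-07), with total RNA down from between 3006 and 3171 to between 2209 and 2486 FPKM and polysomal RNA up from between 4016 and 4160 to between 5345 and 5720 FPKM. The antenna gene CAB2 rose by 0.62, and it shares reads with near-identical copies. After the length and GC adjustment, 6 rose and 22 fell, and with organelle genes removed 9 rose and 22 fell.

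In the heat shock and unfolded protein list 3 of 23 rose (13.04%, against 12.8% of all genes), which is close to the background. In the same list 6 fell (26.09%, against 14.5%), and the median was -0.07. The 6 act in the endoplasmic reticulum (ER), and were the HSP70 chaperones BIP2 (-1.07) and BIP1 (-0.86), the ER HSP90 SHD (-0.98), the calreticulin CRT1a (-0.81), the protein disulfide isomerase PDIL1-1 (-0.71) and the calnexin CNX1 (-0.67). SHD total RNA rose from 24.67, 25.24 and 25.99 FPKM to 49.43, 48.78 and 50.01 FPKM. Its polysomal RNA was 96.85, 100.1 and 104.9 FPKM at T0 and 95.30, 100.5 and 97.35 FPKM at T15. The polysomal values overlapped and the total RNA values did not. The 3 risers were cytosolic heat shock genes, HSP70 (0.44 ± 0.13, adjusted p = 0.011), HSP17.6A (0.42) and HSP90.1 (0.40 ± 0.12, adjusted p = 0.013). Both HSP70 and HSP90.1 fell in both fractions, HSP70 from between 35.53 and 39.36 to between 14.41 and 15.07 FPKM in total RNA and from between 88.39 and 93.88 to between 49.12 and 51.25 FPKM in polysomal RNA. With organelle genes removed HSP90.1 no longer passed (adjusted p = 0.057), and the list held 1 riser and 7 fallers.

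Genes of ABA and osmotic stress responses fell in 10 of 31 tested (32.3%, against 14.5% of all genes) and rose in 3 (9.68%, against 12.8%). The list median was -0.11, and after the length and GC adjustment 5 fell. P5CS1, which makes the osmolyte proline, changed by -0.59 ± 0.06 (adjusted p = 7e-08). Its total RNA rose from 38.04, 38.12 and 36.36 FPKM to 52.28, 51.85 and 53.71 FPKM, while its polysomal RNA went from between 97.68 and 102.8 to between 89.07 and 96.79 FPKM. RAB18, a dehydrin, rose by 0.36 ± 0.08 (adjusted p = 0.00085), with overlapping total RNA values and polysomal RNA up from between 72.08 and 79.34 to between 97.01 and 104.6 FPKM, but did not pass after the length and GC adjustment (0.19, adjusted p = 0.071). The ABA hydroxylases parted, CYP707A3 at 0.40 and CYP707A1 at -0.45. In the sodium transport and osmosensing list 3 of 8 fell (37.5%, against 14.5% of all genes) and none rose (median -0.22). PGSIP6, known as MOCA1 in sphingolipid-based salt sensing, changed by -0.43 and the vacuolar sodium exchanger NHX1 by -0.40. The list held 2 fallers (median -0.06) after the length and GC adjustment, where NHX1 did not pass (-0.24, adjusted p = 0.065). In the unadjusted fit SOS1, SOS2, SOS3 and HKT1 stood at -0.14, -0.10, -0.52 and -0.16 and did not pass.

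Rapid stress-inducible regulators were close to the background, with 5 of 31 rising (16.1%, against 12.8% of all genes) and 3 falling (9.68%, against 14.5%). Their median was 0.10. ERF2, an ethylene response factor, rose by 0.52 ± 0.11 (adjusted p = 0.0015), and its polysomal RNA went from 9.36, 8.69 and 9.52 FPKM to 18.64, 20.38 and 19.73 FPKM. ERF5 rose by 0.50. WRKY33, a defence regulator, rose in total RNA from between 16.50 and 18.70 to between 38.37 and 40.23 FPKM, and its association changed by -0.37 ± 0.09 (adjusted p = 0.003). WRKY46 changed by -0.53. Auxin response genes gave 3 risers of 17 (17.65%, against 12.8% of all genes) and no faller, with IAA19 at 0.46 and AXR3 at 0.29. The auxin list median was 0.02. With organelle genes removed the list gave 1 riser and 1 faller, and after the length and GC adjustment 1 riser and 3 fallers. The smaller lists of 6 root-expressed genes and 6 tested of 13 seed genes gave 1 riser and 2 fallers, and 1 and 1. These are too few to set against the shares over all genes. The seed riser, CRA1, reached 1 FPKM only in T15 polysomal RNA (1.83 to 2.36 FPKM). It passed the level filter through the group where it was high, so its rise was partly built in.

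Decapping and decay genes fell in 8 of 27 (29.6%, against 14.5% of all genes) and rose in 1 (3.70%, against 12.8%), with a median of -0.15. Total RNA rose in 21 of the 27, against 29.9% of all genes. DCP2, the decapping enzyme, changed by -0.60 ± 0.09 (adjusted p = 4.5e-05), as total RNA went from 7.66, 8.04 and 8.10 FPKM to 12.75, 11.76 and 13.25 FPKM with overlapping polysomal values. Its activator DCP1 changed by -0.32, the exonuclease XRN4 by -0.31 and UPF3 of nonsense-mediated decay by -0.43. LSM1B, of the decapping activator ring, rose by 0.33 (adjusted p = 0.043), and its call was lost without any of 9 libraries and after the length and GC adjustment (0.09, adjusted p = 0.65). The count of fallers was 4 after the length and GC adjustment. The list is long in coding sequence, with a median of 1836 nt. Stress granule RNA-binding proteins fell in 6 of 17 (35.3%, against 14.5% of all genes) and rose in 2 (11.8%, against 12.8%), with a median of -0.15. Tudor2 changed by -0.31, RBP45B by -0.30, and RBP47A and RBP47B by -0.28. This list held 3 risers and 3 fallers (median -0.05) after the length and GC adjustment, where Tudor2 did not pass (-0.17, adjusted p = 0.054). GRP7, a cold- and clock-regulated glycine-rich protein, rose by 0.57 ± 0.14 (adjusted p = 0.0035).

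Coding length ordered the association change more closely than any other mRNA feature measured. Over 19028 nuclear protein-coding genes with transcripts of at least 300 nt, Spearman's rho with coding length was -0.47, a description across genes that are not independent replicates. It was -0.43 with transcript length, 0.24 with GC content at the wobble position of codons, -0.11 with transcript GC content, -0.10 with 5′ UTR length, -0.02 with the number of upstream ATGs and 0.0034 with 3′ UTR length. The same measure was 0.53 for coding length and total RNA change, and 0.30 for polysomal RNA change.

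By coding length, 299 of the 828 genes of up to 300 nt rose (36.1%) and 5 fell (0.604%), with a median of 0.35. In the 3457 genes of 901 to 1200 nt the median was -0.04. In the 2585 genes of 1801 to 2700 nt, 82 rose (3.17%) and 761 fell (29.4%), with a median of -0.15. Total RNA medians ran from -0.51 in the shortest class to 0.24 in the longest (over 2700 nt), and polysomal medians from -0.13 to 0.14. At T0 the shortest class sat lowest in polysomes, with a median association level (log2 polysomal minus log2 total) of -0.94 against 0.31 in the longest, and at T15 these levels were -0.60 and 0.17.

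The length correction behind FPKM differed little between the times. Once a length offset was taken off each transcript, 84.7% to 88.9% of low values in the dcp5-1 libraries came within 0.1 of whole fragment counts, against 35.6% to 44.6% with the full length. This offset was 251 to 257 nt in T0 total RNA, 248 to 257 nt in T15 total RNA, 262 to 266 nt in T0 polysomal RNA and 257 to 269 nt in T15 polysomal RNA. With all libraries set to 1 common offset, a setting chosen after seeing the data, rho was -0.46 and 2611 genes rose and 3015 fell. After the length and GC adjustment, rho with coding length was -0.05. This low value was set by the step itself, which removes trends on transcript length whatever their source.

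**Figure D4:**
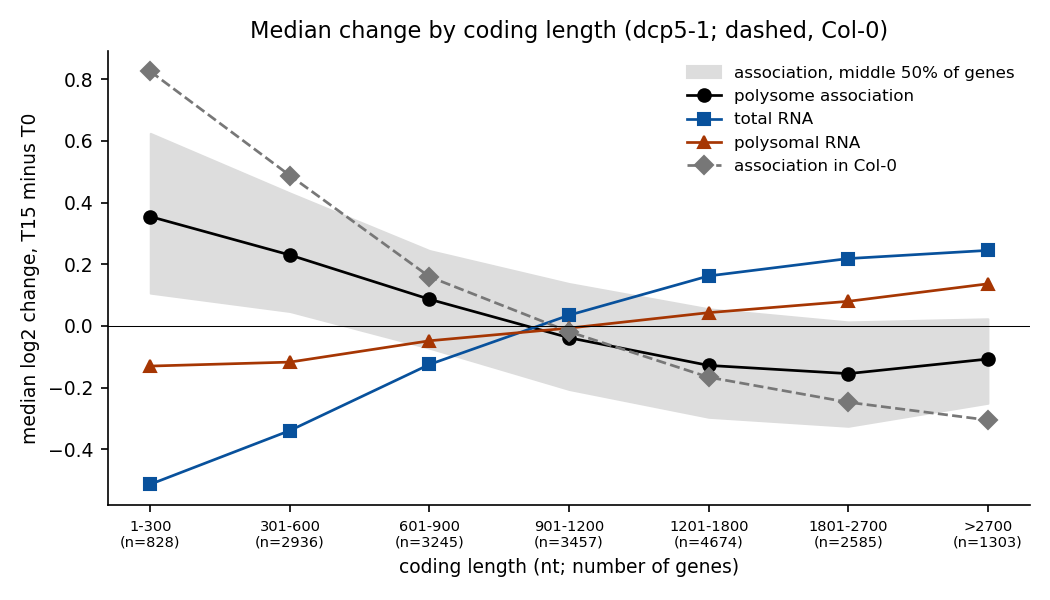
Median log2 change from T0 to T15 in 7 classes of coding length in dcp5-1, for polysome association (black; the grey band runs from the lower to the upper quartile), total RNA (blue squares) and polysomal RNA (brown triangles), with the association change in Col-0 dashed. Association runs from 0.35 in the shortest class to -0.15 at 1801 to 2700 nt, total RNA from -0.51 to 0.24, and the Col-0 line from 0.83 to -0.31.

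RNA classes other than nuclear mRNA were few. The 716 tested long non-coding RNAs had a median association change of 0.07 and the 19113 protein-coding genes of -0.0097. The median was 0.36 in 101 genes annotated as other non-coding RNA, 0.26 in 53 miscellaneous RNAs and -0.42 in 32 antisense RNAs, whose reads cannot be told apart from those of their partner genes if strand was not used. Of 57 chloroplast-encoded genes tested, 4 rose (7.02%, against 12.8% of all genes) and none fell (median 0.26). Of the 57, 6 combined a listed 0 and at least 10 FPKM within a group of 3, so their values are uncertain. The same held for 102 (0.504%) of the nuclear genes. Of 6 mitochondrion-encoded genes tested 1 rose.

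Most calls were shared with Col-0. Of the 2600 risers in dcp5-1, 2137 (82.2%) rose in Col-0 as well, where 4767 genes (23.5%) rose in all, and of the 2948 fallers 2249 (76.3%) fell in Col-0, where 4510 (22.2%) fell. Col-0 had calls in 45.7% of genes against 27.3% in dcp5-1, and changes of 2-fold or more in 4.57% upward and 0.281% downward. These shares rest on 1 spread per gene for all groups, although Col-0 T0 total RNA varied most. With group-specific weights the gap was smaller: 3101 genes rose and 3457 fell in dcp5-1, against 4347 and 4034 in Col-0. A fit of the 12 dcp5-1 libraries alone gave 3056 risers and 3172 fallers. The 2 association changes share no libraries. Both use the same spread estimate per gene, however, so their calls are not independent. The difference between the genotypes was tested gene by gene: 1349 genes (6.64%) differed, of which 419 (2.06%) were higher in dcp5-1 and 930 (4.58%) lower. The 930 had a median change of 0.17 in dcp5-1 against 0.86 in Col-0, and 827 of them rose in Col-0. The 419 had medians of 0.02 and -0.48. The median coding length was 459 nt in the 930 and 1827 nt in the 419.

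These counts depended on scaling and on single libraries. After the length and GC adjustment, 246 genes were higher and 339 lower, and with organelle genes removed 631 and 645, so the share of higher calls went from 31.1% to 42.1% and 49.5%. Leaving out Col-0 T0 total library 0 gave 579 and 1562, and leaving out dcp5-1 T15 total library 2 gave 266 and 653. Col-0 T0 total RNA was also the group with the widest spread.

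Among named nuclear genes with a mean of at least 10 FPKM in dcp5-1, LOX2 (AT3G45140), the chloroplast lipoxygenase of jasmonate synthesis, had the largest positive difference. In dcp5-1 its total RNA went from 5.83, 5.68 and 5.73 FPKM to 13.47, 14.73 and 12.43 FPKM, and its polysomal RNA from 17.46, 16.96 and 18.72 FPKM to 61.44, 61.07 and 59.72 FPKM. Both rose without overlap, polysomal RNA the more, while in Col-0 mean total RNA rose from 13.2 to 22.8 and polysomal RNA from 37.5 to 53.3 FPKM. Association changed by 0.62 in dcp5-1 and -0.25 in Col-0, a difference of 0.87 ± 0.10 (SE, adjusted p = 6e-05), and of 0.74 (adjusted p = 0.00036) after the length and GC adjustment. CTL2 (a chitinase-like protein of secondary walls, 0.75), ENT1 (a nucleoside transporter, 0.72), FXG1 (an alpha-fucosidase acting on xyloglucan, 0.71) and GLT1 (an ammonium-assimilating glutamate synthase, 0.70) followed. ENT1 (adjusted p = 0.045) lost the call under the smaller pseudocount, without the filter, after the length and GC adjustment, under the replicate block (column number as a block) and without any of 16 libraries.

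By the same choice MIR163, the precursor gene of a microRNA, had the most negative difference. In dcp5-1 its total RNA went from 25.17, 26.19 and 26.31 FPKM to 15.65, 15.14 and 15.73 FPKM, and its polysomal RNA from 25.94, 25.67 and 29.61 FPKM to 15.63, 15.73 and 15.62 FPKM. Both fractions fell alike without overlap, whereas in Col-0 mean total RNA went from 44.0 to 8.98 FPKM and polysomal RNA from 27.9 to 18.7 FPKM. The difference was -1.68 ± 0.33 (SE, adjusted p = 0.006). The Col-0 T0 total values had an SD of 7.51 FPKM. MIR163 is 331 nt long, little above the length offsets of 248 to 274 nt, so its FPKM rests on a short remaining length. Being under 400 nt, MIR163 and CPL3 (396 nt) were left out of the setting with 1 common offset. FHL, a phytochrome A import factor, differed by -1.31, as association changed by -0.57 in dcp5-1 and 0.74 in Col-0. The protease inhibitor UPI differed by -1.21, the metallothionein MT1C by -1.14 and the epidermal MYB regulator CPL3 by -1.13. In dcp5-1 these 3 lost both fractions in step, UPI from between 461.1 and 553.9 to between 252.8 and 271.1 FPKM in total RNA and from between 110.3 and 138.3 to between 64.34 and 69.35 FPKM in polysomal RNA, and their association changes of 0.06, 0.07 and 0.0085 did not pass. These small values changed sign with organelle genes removed or after the length and GC adjustment, and in the latter setting UPI (-0.28) and MT1C (-0.27) passed as falling. CPL3 lost the call of a difference there (-0.77, adjusted p = 0.11).

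Of the 12 largest risers, 8 rose less in dcp5-1 than in Col-0 by the test of the difference. TPX2 differed by -0.83, AGP14 by -1.12, AGP13 by -0.79 and RPS15A by -0.71. After the length and GC adjustment, RPS15A alone of the 8 passed (-0.59, adjusted p = 0.027). Of the 12 largest fallers, GLL22 alone differed (0.54 ± 0.13, adjusted p = 0.013), and it did so after the length and GC adjustment (0.55, adjusted p = 0.019), where MFP1 (-0.47, adjusted p = 0.039) and CR88 (-0.36, adjusted p = 0.012) also passed. Among the lists, the ribosomal protein genes held 12 lower members of 80 and 24 of 105, the arabinogalactan genes 6 of 19 and the photosynthesis genes 10 of 52, with none higher, against 4.58% lower over all genes. Decapping and decay genes held 4 higher members of 27 and none lower, against 2.06% higher over all genes. DCP5 was among them, and did not pass after the length and GC adjustment (adjusted p = 0.13).

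**Figure D5:**
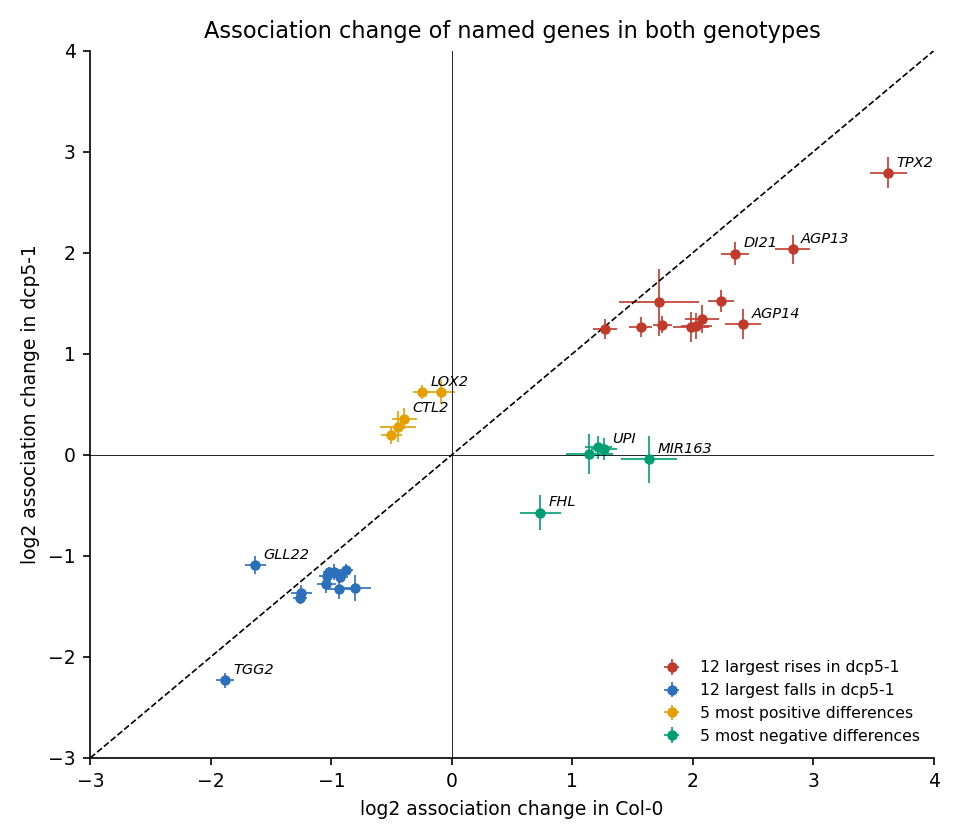
Log2 association change in Col-0 (x axis) and dcp5-1 (y axis) with SE bars for the 12 largest rises, the 12 largest falls and the 10 genes with the largest differences between genotypes; the dashed line marks equal change. TPX2, AGP13 and AGP14 lie below the line among the risers, GLL22 above it among the fallers, and MIR163 and UPI lie near 0 in dcp5-1 but above 1 in Col-0.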

How the data were processed

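The authors deposited 1 table of FPKM per gene for 24 libraries. Per the submitters' processing notes Bowtie and TAIR10 were used; the sources used here give no version, strand setting or counting method. Whole-fragment spacing of low values showed that the deposited FPKM had been divided by a length reduced by a library's own offset.

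Association was log2(FPKM + 1) of polysomal minus total RNA. Group means of all 24 libraries were fitted with limma 3.58.1 (trend, robust; R 4.3.3), and p-values were Benjamini-Hochberg adjusted over 20301 genes (threshold 0.05). The fit was also run on simulated data with known changes and 1 spread per gene in all groups. That run cannot check the fit for groups that differ in spread. Column numbers 0 to 2 are not tied to the labels' replicate numbers. Of the IDs, 99.2% matched TAIR10.1.

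The members and gene lists were chosen with earlier results of these data known. Named genes were the 12 largest changes each way, the 5 largest each way carried by polysomal RNA and for the genotype difference (mean of at least 10 FPKM, nuclear, with a symbol), and, per list, the members with the smallest p (at most 2 each way); other list members were chosen after their values were seen. Alternatives changed the pseudocount, filter, scaling, length treatment, weights, block and libraries. A gene of the decapping and decay list is not reported here by name.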

Additional observations from a re-analysis of the deposited data

Results flagged for a closer look

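Differences between the genotypes in the association change, each by limma's test of dcp5-1 minus Col-0 with an adjusted p below 0.05, were found for 419 genes that were higher in dcp5-1 and 930 that were lower. Among the named genes, the difference was 0.87 for LOX2, 0.75 for CTL2, 0.72 for ENT1, 0.71 for FXG1, 0.70 for GLT1 and 0.54 for GLL22 on the log2 scale. It was -1.68 for MIR163, -1.31 for FHL, -1.21 for UPI, -1.14 for MT1C and -1.13 for CPL3. Among the largest risers it was -1.12 for AGP14, -0.83 for TPX2, -0.79 for AGP13, -0.75 for LSM3B, -0.73 for CYCP2;1, -0.72 for AVA-P4, -0.71 for RPS15A and -0.46 for AGP16.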

How the results depend on the processing

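Removing organelle-encoded genes before scaling gave 2093 genes rising and 4982 falling in polysomal RNA, and 631 higher in dcp5-1 than in Col-0. The length and GC adjustment gave 246 higher and 339 lower. Leaving out single libraries gave 2221 to 2899 genes rising and 2588 to 3172 falling in association, 2992 to 3831 and 2622 to 3529 in polysomal RNA, 5534 to 6205 and 5097 to 5757 in total RNA, and 266 to 579 higher and 653 to 1562 lower in dcp5-1. With the replicate block 2572 genes rose, 2897 fell, 359 were higher and 870 lower. Deviations of same-numbered libraries correlated at -0.44 to 0.37 (median 0.0052) over the 84 pairs of all groups. Over the 18 pairs within dcp5-1 they ran from -0.44 to 0.30. Most of these pairs cross times or genotypes, where no lysate is shared. Between the 2 fractions of dcp5-1 at T0, same numbers gave 0.036, 0.053 and 0.24, and different numbers -0.23 to 0.18. At T15 same numbers gave 0.00079, -0.026 and -0.061, and different numbers -0.060 to 0.066. No label ties the numbers to replicates, and they were not taken to pair samples.

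The association changes that changed sign were near 0. With organelle genes removed UPI read -0.045, MT1C -0.030 and CPL3 -0.086; after the length and GC adjustment they read -0.28, -0.27 and -0.28. CPL3 read -0.017 with a pseudocount of 0.1. With single libraries left out, MIR163 ran from -0.082 to 0.018, UPI from -0.026 to 0.14 and CPL3 from -0.11 to 0.076. The causes were not tested. FPKM carries no total RNA amount, and 3 libraries a group limit the precision to a median SE of 0.12 for association and 0.17 for the genotype difference.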
